A study of Mus musculus with 9 samples.

Results

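The p53 and Bcl2 family genes of the mitochondrial route to apoptosis were compared between Gfra1+ spermatogonial stem cells (SSC), induced pluripotent stem cells made from them (SSCiPSC) and induced pluripotent stem cells made from fetal fibroblasts (fiPSC). The 9 genes, Trp53, Mdm2, Bax, Bak1, Bbc3, Bcl2, Bcl2l1, Bcl2l11 and Mcl1, were listed by name as core genes of this pathway, with no threshold on their values. They are 9 of 10870 protein-coding genes that could be given a locus, among 54913 loci with a value in all 9 libraries. Each locus was found from its coordinates, which matched the mouse assembly GRCm38, and each gene had exactly 1 locus on its own strand.

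The 9 RNA-seq libraries were 3 each of SSC, SSCiPSC and fiPSC. All cells carried 2 engineered alleles. From Gt(ROSA)26Sortm1(rtTA*M2)Jae the rtTA transactivator is made, and it switches on the 4 reprogramming factors of the second allele, Col1a1tm3(tetO-Pou5f1,-Sox2,-Klf4,-Myc)Jae, when doxycycline is given. SSC were at passage 0 and came from testes of postnatal day 6 mice by magnetic sorting for Gfra1. Both kinds of iPSC were at passage 10 to 11 by the labels (the methods give a later one), grew in embryonic stem cell medium with LIF and doxycycline by the labels, and descended from picked colonies. By the methods, doxycycline had been withdrawn in steps and the iPSC were sorted for SSEA-1 to leave out feeder cells. No fibroblast library was analysed here, so fiPSC had no comparison with their own starting cells. The study calls the libraries biological samples, but the labels do not say whether replicates came from separate animals or separate lines, and the p-values then measure only the spread between these libraries, which may be technical.

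The SSC libraries were shallower. They held an estimated 1770000, 4630000 and 1390000 fragments, against 13300000 to 17600000 in the 6 iPSC libraries. A single fragment per kilobase of RNA was worth 0.565, 0.216 and 0.722 FPKM (fragments per kilobase of RNA, scaled to the size of the library) in SSC, and no more than 0.0753 FPKM in iPSC. A value of 0 therefore allows up to 2.17 FPKM in the shallowest SSC library and up to 0.226 FPKM in iPSC for 1 kilobase of RNA, counting error only.

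The markers matched the labels in part. Gfra1, the GDNF co-receptor used for the sort, stood at 37.7, 34.1 and 23.9 FPKM in SSC and at no more than 0.171 FPKM in iPSC, and the summed level of 14 germ line markers, led by Dazl, was 798, 1005 and 678 FPKM in SSC and between 246 and 388 FPKM in iPSC. Of that list, Kit and Etv5 were lower in each SSC library than in any iPSC library. Nanog and Fbxo2 were listed at 0 in all SSC libraries. Of 12 pluripotency markers, 11 had a locus, and they summed to 75.4, 60.6 and 45.9 FPKM in SSC, led there by Sall4. In each iPSC library they summed to 1648 FPKM or more. The SSC libraries also held RNA of other testis cells. For Sertoli cells, 8 of 11 markers had a locus, and their sum, led by Clu, was 1198, 1195 and 935 FPKM in SSC and at most 7.74 FPKM in iPSC, where Cst12 and Cst9 were at 0. For mast cells, 6 of 8 markers, led by Tpsab1, summed to 115, 441 and 1226 FPKM in SSC and to at most 0.284 FPKM in iPSC, with Tpsab1, Tpsb2 and Mcpt4 at 0. For Leydig cells, 4 of 8 markers, led by Cyp11a1, summed to 171, 154 and 269 FPKM in SSC and to at most 0.742 FPKM in iPSC, with Lhcgr at 0. For macrophages, 6 of 8 markers, led by C1qa, summed to 55.3, 19.6 and 158 FPKM in SSC and to between 8.93 and 14.4 FPKM in iPSC. Most of the iPSC sum was Cd68, which overlapped between the cell types (7.53, 3.51 and 15.8 FPKM in SSC and 7.65 to 13.7 FPKM in iPSC), and each of the other 5 was at most 1.89 FPKM in iPSC. For peritubular myoid cells, 5 of 7 markers, led by Acta2, summed to 115, 97.5 and 84.9 FPKM in SSC and to at most 14.1 FPKM in iPSC. Acta2, Myh11 and Myl9 were higher in each SSC library, whereas Des and Cnn1 overlapped between the cell types. Des was at 2.89, 1.94 and 4.62 FPKM in SSC and at 3.59 to 8.86 FPKM in iPSC. Of the 6 endothelial markers, Cdh5, Kdr, Tek, Tie1 and Emcn were higher in each SSC library than in any iPSC library, with Cdh5 at 22.2, 12.6 and 27.2 FPKM in SSC and at most 0.0458 FPKM in iPSC and Emcn at 0 in iPSC. Pecam1, the most abundant of them and also a gene of mouse pluripotent cells, was at 54.6, 26.6 and 44.1 FPKM in SSC and at 79.6 FPKM or more in iPSC, so the sums, from 56.8 to 117 FPKM in SSC and from 83.4 to 127 FPKM in iPSC, overlapped. The 11 fibroblast or feeder markers, led by Vim, summed to 450, 408 and 856 FPKM in SSC and to between 136 and 283 FPKM in iPSC. Of that list, Thy1 and Lum overlapped between the cell types, with Thy1 at 0, 2.16 and 0.437 FPKM in SSC and 1.56 to 6.23 FPKM in iPSC. The part of these cells in the differences from SSC below was not tested. In such bulk RNA, fewer cells of a type and less RNA per cell cannot be told apart.

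As background, p53 is a transcription factor that stress stabilises, and Mdm2 is both the ubiquitin ligase that removes it and one of its target genes. Bax and Bak1 are the effectors that open the outer mitochondrial membrane. Bcl2, Bcl2l1 (Bcl-xL) and Mcl1 hold them back, and the BH3-only proteins Bbc3 (Puma, a p53 target) and Bcl2l11 (Bim) release or activate them. Pluripotent stem cells are known to be quick to enter apoptosis, and germ cells of the testis depend on this family for the loss of surplus cells.

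The sequences before the annotated starts of 3 members are shown because Bax rose and Bcl2 fell against SSC in both kinds of iPSC, whereas Mdm2, a p53 target like Bax, did not pass the test. The Bak1 window lies wholly in annotated exons and is not shown. Each is the 250 bases before the start in RefSeq (GRCm38.p6, minus strand genes read 5′ to 3′). Capitals mark a match to the p53 half-site consensus in Bax and Mdm2, and GGGCGG on either strand in Bcl2, which held no half-site match.
Bax, chr7:45466899-45467148, minus strand: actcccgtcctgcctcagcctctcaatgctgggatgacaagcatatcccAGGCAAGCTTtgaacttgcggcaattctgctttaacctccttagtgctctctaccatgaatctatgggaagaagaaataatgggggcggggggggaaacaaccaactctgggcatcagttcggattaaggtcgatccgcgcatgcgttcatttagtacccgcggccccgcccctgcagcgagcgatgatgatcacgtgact
Mdm2, chr10:117710759-117711008, minus strand: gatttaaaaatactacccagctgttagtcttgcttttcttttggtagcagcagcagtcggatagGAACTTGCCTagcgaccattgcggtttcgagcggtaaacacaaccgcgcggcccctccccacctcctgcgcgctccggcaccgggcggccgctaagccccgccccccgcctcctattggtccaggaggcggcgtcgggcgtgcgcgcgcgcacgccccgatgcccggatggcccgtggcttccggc
Bcl2, chr1:106714291-106714540, minus strand: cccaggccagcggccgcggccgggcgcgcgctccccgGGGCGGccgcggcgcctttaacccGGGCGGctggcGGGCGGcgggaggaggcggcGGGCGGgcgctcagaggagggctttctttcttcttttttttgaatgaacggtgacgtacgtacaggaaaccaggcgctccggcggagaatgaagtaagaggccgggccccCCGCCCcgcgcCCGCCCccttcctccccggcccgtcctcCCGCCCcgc
A start window was found for 9 of 9 members. A half-site match, a 10-letter pattern that reads the same on both strands, stood once each before Bax (first base at position -201 from the start), Mdm2 (-186) and Trp53 (-75), and not before the other 6 members. Of 32817 RefSeq windows of the same length, 7.12% held one. A full p53 site is a pair of half-sites, and no window of a member held a pair. GGGCGG, read on both strands, was found 7 times before Bcl2, 5 times before Bbc3, 3 times before Bcl2l11, 2 times each before Bax and Mdm2, and once before Mcl1, and was not found before Trp53, Bak1 or Bcl2l1. It occurred in 32.7% of all windows. Of the Trp53 window, 147 bases lie in an exon of Wrap53, the gene on the opposite strand. These are matches of letters, not measured sites. Sequences after the start, farther before it or at other annotated starts of a member were not searched, so sites there are not covered.

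SSCiPSC held more RNA of both effectors, of Trp53 and of Mcl1 than SSC, and less of Bcl2 and Bcl2l11. Among the higher members Bak1 differed most, with mean levels 13.5 times those of SSC, followed by Bax at 4.89 times, Trp53 at 2.81 times and Mcl1 at 2.11 times. Bcl2 stood at 0.0424 times and Bcl2l11 at 0.548 times the SSC mean. Most of the SSCiPSC mean of Bcl2 came from replicate 3, at 0.389 FPKM against 0.0619 and 0 FPKM in replicates 1 and 2. Mdm2, Bbc3 and Bcl2l1 did not pass the test. Thus 6 of 9 members were called at an adjusted p below 0.05, 4 higher and 2 lower, with limma on log2(FPKM + 1) and Benjamini-Hochberg adjustment over all loci. In the same fit 50.3% of 36544 loci were called (26.2% higher and 24.1% lower), and 62.9% of 9571 named protein-coding genes, so the share of members called was close to that of other genes. The split of the loci by direction moved with the setting, to 10905 higher and 7624 lower under median-ratio scaling and to 6436 and 3271 with a mean of at least 5 FPKM. It turned to 8861 higher and 9187 lower under quantile normalization, and to 4761 and 6596 without SSCiPSC replicate 3. The filter still asked for 3 libraries there, so loci that reached 1 FPKM only in SSCiPSC were not tested. Without that replicate and without the filter the split was 8655 higher and 6350 lower. The groups of the 6 called members did not overlap, as in 59.8% of all loci. The median log2 fold change was 0.54 for the members and 0.11 for all loci. Median-ratio scaling of the libraries moved these medians to 0.73 and 0.28, and quantile normalization moved the members' calls to 3 higher and 3 lower. With 3 libraries against 3, the exact permutation test cannot give a two-sided p below 0.1, the value that each of the 6 called members reached.

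**Figure D1:**
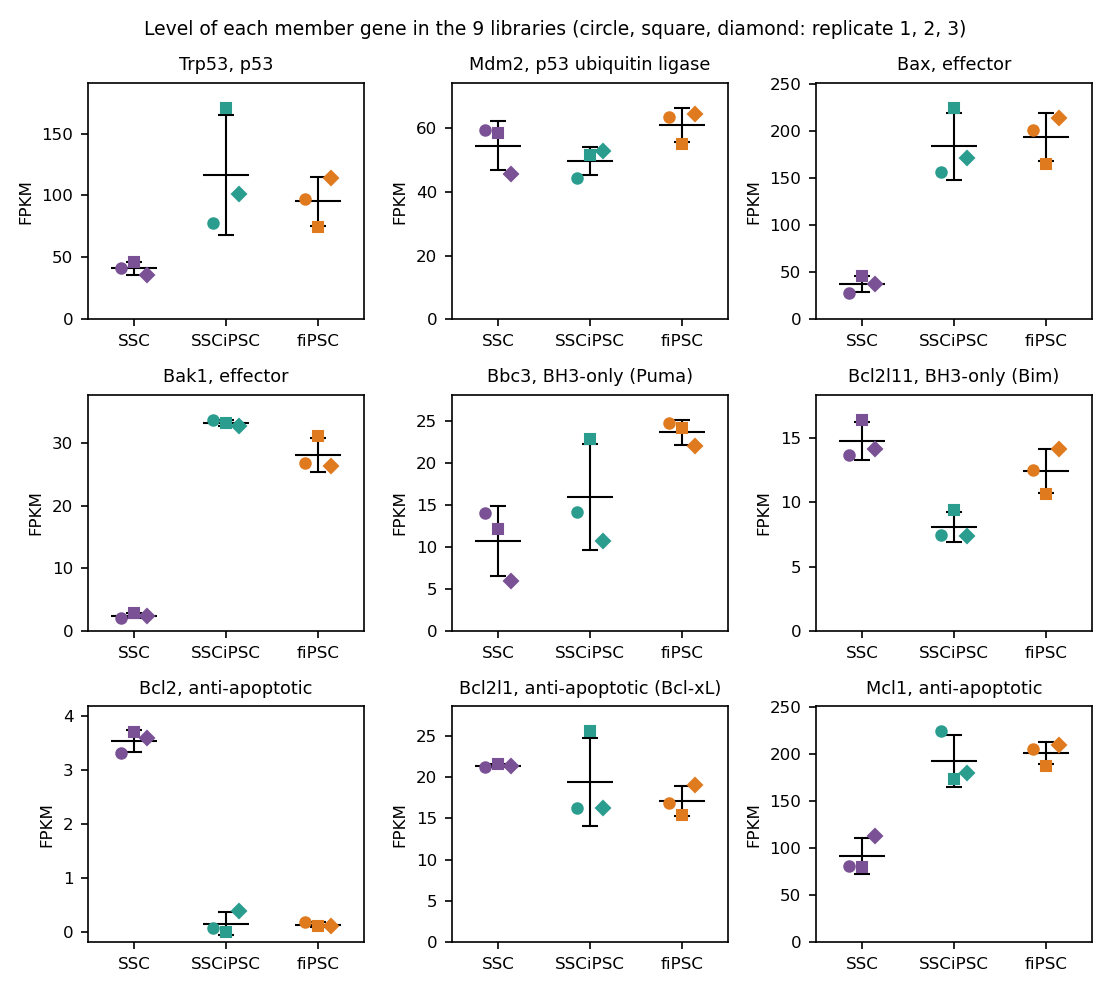
FPKM of each member gene (vertical axes, from 0 except for a small margin below 0 for Bcl2) in the 9 libraries by cell type, with the mean and SD of 3 libraries as black bars and replicate 1, 2 and 3 as circle, square and diamond. Bak1 sat between 2.13 and 2.85 FPKM in SSC and between 26.3 and 33.7 FPKM in iPSC, whereas the Mdm2 libraries of SSC and SSCiPSC overlapped.

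Trp53 stood at 41.3, 46.7 and 36.0 FPKM in SSC, at 77.6, 170 and 101 FPKM in SSCiPSC and at 97.2, 74.8 and 114 FPKM in fiPSC. Every iPSC library lay above every SSC library, and SSCiPSC replicate 2 lay far above the other 2 of its group. On the log2(FPKM + 1) scale the difference of SSCiPSC from SSC was 1.4 ± 0.29 (SE, n = 3 libraries per group, adjusted p = 0.0076), and that of fiPSC from SSC 1.17 ± 0.18 (adjusted p = 0.0025). Under quantile normalization these were 0.72 and 0.61, and both were still called. Its assembled interval starts ahead of the annotated gene, over an annotated exon of Wrap53 on the opposite strand.

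Mdm2 did not follow Trp53. It stood at 59.5, 58.4 and 45.6 FPKM in SSC, at 44.5, 51.6 and 52.7 FPKM in SSCiPSC and at 63.3, 54.9 and 64.5 FPKM in fiPSC. The SSC libraries overlapped with those of both iPSC groups. The difference of SSCiPSC from SSC was -0.13 with a 95% interval from -0.50 to 0.24 (adjusted p = 0.530), turned to 0.07 under median-ratio scaling, and was -0.73 and called under quantile normalization (adjusted p = 0.0101). A separate unstranded locus over the 3′ end of the gene gave 48.8, 35.9 and 43.7 FPKM in SSC, 28.0, 34.5 and 32.8 FPKM in SSCiPSC and 37.2, 34.5 and 43.0 FPKM in fiPSC. The ratio of Mdm2 to Trp53 FPKM was 1.44, 1.25 and 1.27 in SSC, 0.573, 0.303 and 0.521 in SSCiPSC, and 0.651, 0.734 and 0.566 in fiPSC. Mdm2 RNA thus exceeded Trp53 RNA in each SSC library and was below it in each iPSC library, and a scaling factor per library cannot change this.

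Bax, the effector that waits in the cytosol, stood at 28.4, 46.4 and 38.0 FPKM in SSC, at 156, 224 and 172 FPKM in SSCiPSC and at 201, 165 and 214 FPKM in fiPSC. The lowest iPSC library was above the highest SSC library. The difference from SSC was 2.27 ± 0.22 for SSCiPSC (SE, adjusted p = 0.00042) and 2.35 ± 0.20 for fiPSC (adjusted p = 0.00026). It was called under each of the 14 alternatives run for each comparison, with log2 fold changes from 1.55 to 2.47 for SSCiPSC.

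Bak1, the effector that sits in the mitochondrial membrane, was the member with the largest difference on the log2(FPKM + 1) scale, though Bcl2 differed more by the ratio of means. It stood at 2.13, 2.85 and 2.39 FPKM in SSC, at 33.7, 33.2 and 32.6 FPKM in SSCiPSC and at 26.7, 31.1 and 26.3 FPKM in fiPSC. The difference from SSC was 3.31 ± 0.17 for SSCiPSC (SE, adjusted p = 7.1e-05) and 3.07 ± 0.16 for fiPSC (adjusted p = 7.1e-05), called under all 14 alternatives in each comparison. Bak1 shares its assembled interval with Ggnbp1 on the opposite strand, and the minus strand locus was taken as Bak1. Bax RNA exceeded Bak1 RNA 13.3, 16.2 and 15.9 times in SSC, 4.63, 6.75 and 5.25 times in SSCiPSC and 7.51, 5.30 and 8.14 times in fiPSC.

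Of the BH3-only genes, Bbc3 stood at 14, 12.1 and 5.98 FPKM in SSC, at 14.2, 22.9 and 10.7 FPKM in SSCiPSC and at 24.8, 24.2 and 22 FPKM in fiPSC. SSC and SSCiPSC overlapped, and fiPSC lay above SSC in each library. The difference of SSCiPSC from SSC was 0.54, with a 95% interval from -0.39 to 1.47 (adjusted p = 0.288). That of fiPSC from SSC was 1.15 ± 0.30 (SE, adjusted p = 0.0188) and was no longer called without fiPSC replicate 1, 2 or 3 (adjusted p = 0.0695, 0.0657 and 0.0558).

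Bcl2l11 stood at 13.7, 16.4 and 14.2 FPKM in SSC, at 7.45, 9.42 and 7.4 FPKM in SSCiPSC and at 12.5, 10.7 and 14.1 FPKM in fiPSC. SSCiPSC lay below both other groups with no overlap, and fiPSC overlapped with SSC. It was lower in SSCiPSC than in SSC by a log2 fold change of -0.80 ± 0.18 (SE, adjusted p = 0.0104), which was not called without SSCiPSC replicate 3 (adjusted p = 0.0524). Its 3′ locus without strand gave 9.46, 6.0 and 5.31 FPKM in SSC, 2.94, 3.53 and 2.38 FPKM in SSCiPSC and 4.39, 3.87 and 4.63 FPKM in fiPSC, again with SSCiPSC below both other groups.

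Among the anti-apoptotic genes Bcl2 was near the lower limit in iPSC. It stood at 3.32, 3.72 and 3.59 FPKM in SSC, at 0.0619, 0 and 0.389 FPKM in SSCiPSC and at 0.183, 0.0985 and 0.112 FPKM in fiPSC. The difference from SSC was -2.0 ± 0.22 for SSCiPSC (SE, adjusted p = 0.00064) and -2.01 ± 0.17 for fiPSC (adjusted p = 0.00026), which the added 1 FPKM makes smaller than the ratio of the means. Bcl2 passed the filter on low values (1 FPKM in 3 of 6 libraries) through its SSC libraries alone, so that it had to differ between the groups to be tested. With no filter its adjusted p was 0.0019 and 0.00079. A separate unstranded locus over its 3′ end gave 1.14, 1.18 and 0.727 FPKM in SSC and at most 0.0510 FPKM in an iPSC library. Another 34 loci without strand are listed with the interval of the gene itself, so their place within it is not known. The Sertoli, Leydig and mast cell markers were near 0 in iPSC as well, and their part in this difference was not tested.

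Bcl2l1 was not called in any comparison. It stood at 21.2, 21.6 and 21.3 FPKM in SSC, at 16.3, 25.5 and 16.3 FPKM in SSCiPSC and at 16.8, 15.4 and 19.1 FPKM in fiPSC. The difference of SSCiPSC from SSC was -0.17, with a 95% interval from -0.66 to 0.33 (adjusted p = 0.541) and 0.03 under median-ratio scaling. That of fiPSC from SSC was -0.31 (adjusted p = 0.0757) with no overlap between the groups, and it was called under quantile normalization (-0.46, adjusted p = 0.020).

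Mcl1, a short-lived protein, was the most abundant RNA of the 3 anti-apoptotic members in each library. It stood at 81.2, 79.5 and 113 FPKM in SSC, at 224, 173 and 180 FPKM in SSCiPSC and at 205, 187 and 210 FPKM in fiPSC. No iPSC library overlapped with SSC. The difference from SSC was 1.08 ± 0.19 for SSCiPSC (SE, adjusted p = 0.0035) and 1.15 ± 0.16 for fiPSC (adjusted p = 0.0015). Under quantile normalization, which forces all libraries to 1 distribution, it shrank to 0.11 (adjusted p = 0.678) and 0.27 (adjusted p = 0.235). The SSC library with the highest Mcl1, replicate 3, was also the one with the highest mast cell, macrophage, Leydig and fibroblast or feeder sums. It had the lowest germ line, Sertoli and peritubular myoid sums, the lowest Bbc3 and the fewest fragments. The part of any of these in its Mcl1 level was not tested.

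**Figure D2:**
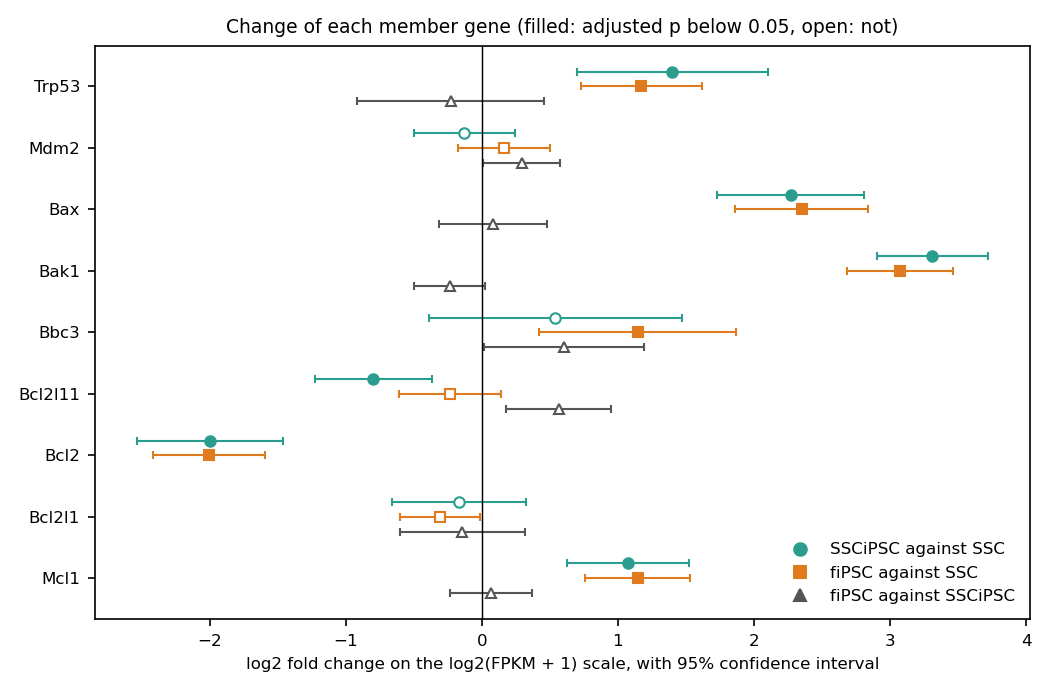
Log2 fold change of each member (horizontal axis, log2(FPKM + 1) scale) with its 95% confidence interval for the 3 comparisons, filled where the adjusted p was below 0.05. Bak1 and Bax lay farthest to the right and Bcl2 farthest to the left in both comparisons with SSC, while no marker of fiPSC against SSCiPSC was filled, and Bcl2 was too low to be tested there.

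The summed RNA of Bcl2, Bcl2l1 and Mcl1 was 106, 105 and 138 FPKM in SSC, 240, 199 and 197 FPKM in SSCiPSC and 222, 203 and 229 FPKM in fiPSC. Mcl1 made up 76.8%, 75.9% and 82.0% of it in SSC and from 87.2% to 93.2% in iPSC. Bcl2 made up between 2.60% and 3.55% of this sum in SSC and at most 0.198% in iPSC, and Bcl2l1 took 20.1%, 20.6% and 15.4% in SSC and from 6.79% to 12.8% in iPSC. Bax and Bak1 together came to 0.289, 0.470 and 0.293 times this sum in SSC, to 0.789, 1.29 and 1.04 times in SSCiPSC and to 1.03, 0.966 and 1.05 times in fiPSC. No SSC library overlapped with an iPSC library in this ratio, and the SSCiPSC libraries spread on both sides of the fiPSC ones. Bbc3 and Bcl2l11 together came to 0.261, 0.273 and 0.146 times the same sum in SSC and to 0.0901, 0.162 and 0.0918 times in SSCiPSC. In fiPSC they came to 0.168, 0.172 and 0.158 times, and SSC overlapped with both iPSC groups. These ratios are of RNA within a library and are given as a description, without a test.

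**Figure D3:**
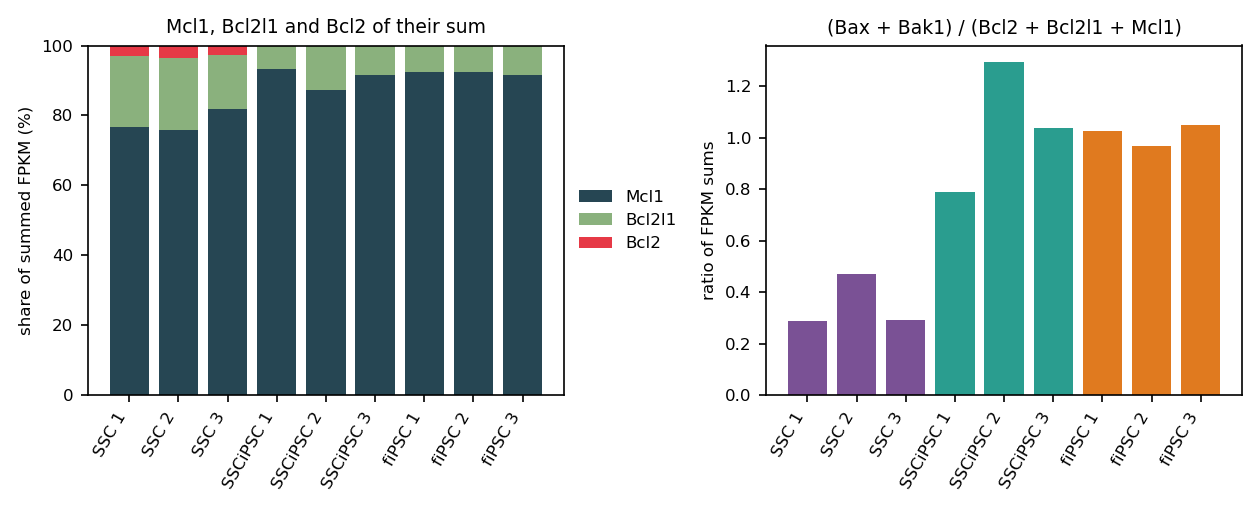
Left, the share (%) of Mcl1, Bcl2l1 and Bcl2 in their summed FPKM in each library; right, the ratio of the FPKM sum of Bax and Bak1 to that of Bcl2, Bcl2l1 and Mcl1. The ratio was between 0.289 and 0.470 in SSC and between 0.789 and 1.29 in iPSC, and the Bcl2 share is visible only in SSC.

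The order of the members differed accordingly. In SSC it ran Mcl1, Mdm2, Trp53, Bax, Bcl2l1, Bcl2l11, Bbc3, Bcl2 and Bak1, with overlap between Mdm2 and Trp53, between Trp53 and Bax, and between Bcl2l11 and Bbc3. In SSCiPSC it ran Mcl1, Bax, Trp53, Mdm2, Bak1, Bcl2l1, Bbc3, Bcl2l11 and Bcl2, with overlap between Mcl1 and Bax, between Bax and Trp53, and between Bcl2l1 and Bbc3. In fiPSC the order was that of SSCiPSC except that Bbc3 stood before Bcl2l1, and only Mcl1 and Bax overlapped. Among all named protein-coding genes Bak1 was at percentile 21.2 in SSC, 77.7 in SSCiPSC and 75.6 in fiPSC, and Bcl2 at percentile 26.6, 8.10 and 6.45.

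Between the 2 kinds of iPSC no member passed the test, in a comparison where 0.0678% of 33948 loci did. Of the 8 members tested, 3 had an unadjusted p below 0.05 in limma, against 11.7% of all loci. These were Bcl2l11, with a log2 fold change of fiPSC from SSCiPSC of 0.56 ± 0.16 (SE, adjusted p = 0.294), Bbc3 with 0.60 ± 0.25 (adjusted p = 0.414) and Mdm2 with 0.29 ± 0.12 (adjusted p = 0.407). The groups did not overlap for Bcl2l11 and Mdm2, both higher in fiPSC, and for Bak1, lower in fiPSC with -0.24 and a 95% interval from -0.50 to 0.03. Such non-overlap was seen in 18.6% of all loci. For Trp53 the difference was -0.23 with an interval from -0.92 to 0.46, and it turned to 0.08 without SSCiPSC replicate 2. For Bax it was 0.08 (from -0.31 to 0.48), for Mcl1 0.07 (from -0.23 to 0.37) and for Bcl2l1 -0.14 (from -0.60 to 0.32), so differences of up to these bounds were not excluded by the test.

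Against the same SSC libraries, 6 of 9 members were called in fiPSC, where 51.8% of 38007 loci and 65.6% of named protein-coding genes were, so that the share of members was close to that of other genes here too. Trp53, Bax, Bak1, Bbc3 and Mcl1 were higher and Bcl2 was lower (28.0% and 23.7% of loci). Of the members, 7 had groups without overlap, these 6 and Bcl2l1, against 61.6% of loci, and quantile normalization gave 4 higher and 2 lower. Bcl2l11 did not pass, at -0.23 with an interval from -0.61 to 0.14 (adjusted p = 0.254), nor did Mdm2 at 0.16 (adjusted p = 0.368), which turned to -0.38 under quantile normalization. Bbc3 was called in fiPSC and not in SSCiPSC, and Bcl2l11 the other way round, but neither difference between the iPSC groups passed its own test above.

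Beyond the members, 77 genes of the pathway were listed by function, 57 had a locus of their own and 56 were tested between SSCiPSC and SSC. Of these, 39 were called, 26 higher and 13 lower, or 19 higher and 15 lower under quantile normalization. That is 69.6%, beside 62.9% of named protein-coding genes (34.2% higher and 28.7% lower) and 50.3% of all loci in the same comparison, and the counts of the single lists below are to be read against these shares. In the Bcl2 family, 8 genes were tested. Bad, a BH3-only gene, was higher in SSCiPSC (7.06, 3.81 and 4.39 FPKM in SSC against 9.27, 12.3 and 10.5 FPKM, adjusted p = 0.0209), and was called in 9 of the 14 alternatives. The anti-apoptotic Bcl2l2, the effector-like Bok and the BH3-only Bik were lower. Bok stood at 14.2, 14.3 and 13.2 FPKM in SSC and at 3.83, 4.19 and 5.53 FPKM in SSCiPSC (log2 fold change -1.44, adjusted p = 0.0014), Bcl2l2 at 0.360 times its SSC mean and Bik at 0.173 times. Bok thus differed in the direction opposite to Bax and Bak1. Pmaip1 (Noxa, a p53 target) overlapped between the groups, with -0.12 and 0.06 under median-ratio scaling (adjusted p = 0.784). The median log2 fold change of the list was -0.14, or 0.04 under median-ratio scaling. Bid had no locus of its own by the rule used.

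Of 10 regulators of p53 tested, 4 were higher and 3 lower in SSCiPSC, or 70.0% called beside 62.9% of named genes. Cdkn2a, whose Arf product blocks Mdm2, was lower, with 11.4, 12.4 and 7.84 FPKM in SSC and 1.08, 0.559 and 1.21 FPKM in SSCiPSC (log2 fold change -2.56 ± 0.29, SE, adjusted p = 0.00064). Ppp1r13l (iASPP, an inhibitor of p53) stood at 0.114 times and the acetyltransferase gene Ep300 at 0.603 times the SSC mean, the latter called in 12 of the 14 alternatives. The checkpoint kinase gene Chek2 was higher, at 8.38, 17.5 and 5.37 FPKM in SSC and 41.4, 41.7 and 38.8 FPKM in SSCiPSC (2.01 ± 0.38, SE, adjusted p = 0.0050). Usp7, which removes ubiquitin from p53 and Mdm2, rose 2.32 times and the deacetylase gene Sirt1 2.07 times, though neither was called under quantile normalization. Mdm4, which masks p53, was at 1.57 times the SSC mean (adjusted p = 0.0258), but it was called in only 7 of the 14 alternatives, and its log2 fold change of 0.62 became -0.03 under quantile normalization. Atm, Atr and Prkdc, kinases of the DNA damage response, were not called. The median of the list was 0.03, or 0.22 under median-ratio scaling, and Trp63 and Trp73 had no locus of their own.

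Of 24 p53 target genes tested, 12 were higher, 4 lower and 8 not called in SSCiPSC. The share called, 66.7%, was close to the 62.9% of named genes, and the median log2 fold change was 0.55, beside 0.14 for named genes and 0.11 for all loci. Zmat3, an RNA-binding p53 target, stood at 0.943, 0.841 and 1.66 FPKM in SSC and at 10.4, 13.1 and 12.8 FPKM in SSCiPSC (2.62 ± 0.26, SE, adjusted p = 0.00041). Eda2r, a TNF receptor family gene, rose 8.70 times, the metabolic regulator Tigar 4.53 times and the cyclin gene Ccng1 3.95 times. Perp, a membrane protein gene, was at 0, 0.704 and 1.96 FPKM in SSC and at 8.09, 5.20 and 5.31 FPKM in SSCiPSC (adjusted p = 0.0088). The death receptor gene Fas went the other way, from 14.1, 9.24 and 6.41 FPKM in SSC to 0.357, 0 and 0.212 FPKM in SSCiPSC (-3.15 ± 0.34, SE, adjusted p = 0.00056). Fas passed the filter on low values through its SSC libraries alone, as did Cflar below, so that each had to differ between the groups to be tested. Both enter the counts of lower genes in their lists. Each was called in all 10 alternatives in which it was tested. Plk2, a polo-like kinase gene, Btg2, an antiproliferative gene, and Ppm1d, a phosphatase gene that turns p53 signalling down, stood at 0.162, 0.170 and 0.507 times their SSC means. Cdkn1a (p21), the best known p53 target, overlapped between SSC at 20.7, 12 and 19.9 FPKM and SSCiPSC at 13.9, 16.5 and 23.7 FPKM (log2 fold change 0.04, -0.14 under quantile normalization, adjusted p = 0.914).

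Of 14 genes of the apoptosome, the caspases and their inhibitors, 9 were higher and 3 lower in SSCiPSC, or 85.7% called beside 62.9% of named genes, with a median log2 fold change of 0.86. Birc5 (survivin), which also serves cell division, stood at 13.4, 23.3 and 7.19 FPKM in SSC and at 158, 180 and 140 FPKM in SSCiPSC (3.49 ± 0.38, SE, adjusted p = 0.00059). Vdac1, a channel of the outer mitochondrial membrane, rose 10.5 times and Vdac2, which binds Bak1, 2.87 times. Under quantile normalization both were still called, with log2 fold changes of 2.62 in place of 3.34 for Vdac1 and 0.58 in place of 1.5 for Vdac2. Apaf1, the scaffold of the apoptosome, rose 1.95 times and Dffa, the inhibitor of a caspase-activated nuclease, 4.02 times, called in 13 and 12 of the 14 alternatives. Among the lower were Casp8 and Cflar, which act below death receptors such as Fas. Casp8 stood at 16.7, 15.9 and 22.8 FPKM in SSC and at 1.86, 1.20 and 1.98 FPKM in SSCiPSC (-2.85 ± 0.24, SE, adjusted p = 0.00027), and Cflar (c-FLIP) at 0.0617 times its SSC mean. Casp8 and Cflar were highest in SSC replicate 3, the shallowest library. There the mast cell, macrophage, Leydig and fibroblast or feeder sums were highest and the germ line, Sertoli and peritubular myoid sums lowest. The part of those cells was not tested. Cycs and Casp9 had no locus of their own.

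**Figure D4:**
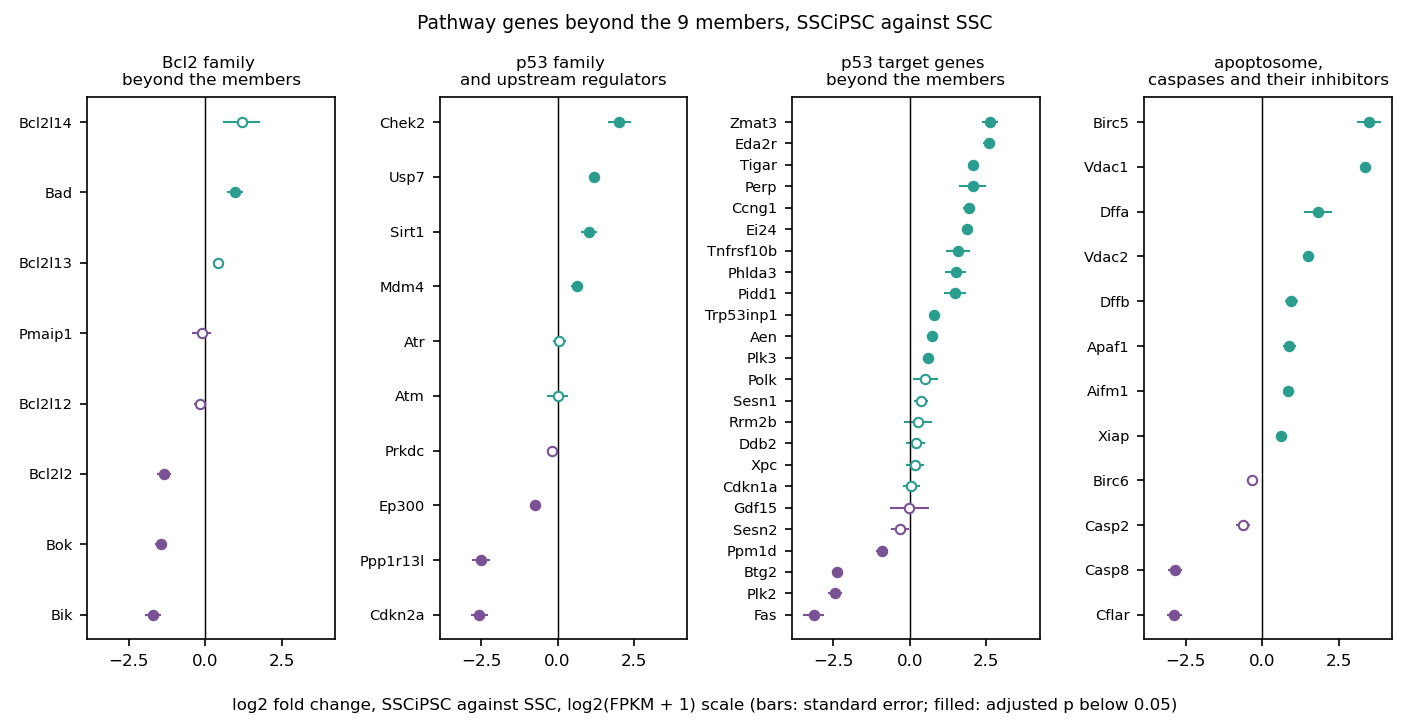
Log2 fold change of SSCiPSC against SSC (horizontal axes, log2(FPKM + 1) scale, bars are standard errors) for the tested genes of the 4 pathway lists except 2 that are not reported here, filled where the adjusted p was below 0.05. Each list holds genes on both sides of 0, with 12 of 24 p53 targets called higher and 4 called lower.

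No gene of the 4 lists was called between fiPSC and SSCiPSC, of 54 tested with limma, and 14 had an unadjusted p below 0.05. Of these, 10 were among the 23 p53 targets tested, against 11.7% of all loci. For 8 of the 23 every fiPSC library lay above every SSCiPSC library, against 18.6% of all loci in either direction. The median log2 fold change of the 23 was 0.30, against 0.01 for all loci and -0.05 for named protein-coding genes. The shares of unadjusted p below 0.05 and of non-overlap were taken over all loci only, not over named genes. Eda2r stood at 16.6, 14.7 and 17.2 FPKM in SSCiPSC and at 23.8, 22.9 and 22.6 FPKM in fiPSC (0.49 ± 0.12, SE, adjusted p = 0.229). Zmat3 stood at 10.4, 13.1 and 12.8 FPKM in SSCiPSC and at 16.2, 14.2 and 16.8 FPKM in fiPSC (adjusted p = 0.392). Tigar went the other way, with 37.0, 51.0 and 43.0 FPKM in SSCiPSC and 37.5, 33.2 and 34.8 FPKM in fiPSC (-0.29 ± 0.14, SE, adjusted p = 0.467), and the log2 fold changes of Sesn1, Rrm2b, Ei24 and Ppm1d were also below 0. Fas was too low to be tested. These genes are not independent of each other, and no gene of the list passed the adjustment.

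The genes whose levels followed Trp53 most closely over the 9 libraries, by the root mean square difference of centred log2(FPKM + 1) among 6916 named genes of at least 5 FPKM on average, were Polr1b, a subunit gene of RNA polymerase I (0.0791), the chromatin remodeller gene Ino80e (0.104) and Jarid2, a Polycomb partner (0.110), where the median gene had 0.656. All 3 shared the peak of Trp53 in SSCiPSC replicate 2, with Polr1b at 35.8, 74.9 and 50.2 FPKM in SSCiPSC. For Bak1 they were the mitotic kinase gene Cdk1 (0.114), Fbxo5, an inhibitor of the anaphase-promoting complex (0.134), and Vdac1 (0.135), with a median of 1.38. Cdk1 stood at 16.6, 25.6 and 21.8 FPKM in SSC and at 235, 208 and 212 FPKM in SSCiPSC.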

How the data were processed

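Per the labels and the methods, the authors made libraries with a stranded mRNA kit (the labels add a depletion of ribosomal RNA, which the methods do not describe), trimmed reads with Trimmomatic 0.32, aligned them with TopHat2 2.0.9 and Bowtie2 2.1.0, and assembled and quantified loci with Cufflinks 2.2.1. The submitters' processing notes also name Cuffdiff and the build mm9, but of the loci with both ends at most 300 bp from those of a GRCm38 gene, 2980 had its strand and 59 the other (98.1% the same), so GRCm38 was used (GENCODE M21). The deposited values are FPKM, 1 per locus and library, headed RPKM in the file. The strand setting of the quantification is not given in the sources used here. The table lists 54914 loci, and 1 with a blank cell was dropped.

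A gene was matched to a locus overlapping by at least 50%, on its strand first and then by the highest mean. Intervals are shared by 23605 loci, so names rest on strand as read from the order of the table. Depth was estimated from the step between the lowest FPKM values of 12016 loci, with an error of at most 0.740% on simulated libraries. Replicates of a group had the same value above 0 at no locus, or at 1 for 1 pair of fiPSC libraries, and each was counted.

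Each pair of groups was tested with limma 3.58.1 in R 4.3.3 (eBayes with a trend) on log2(FPKM + 1), keeping loci that reached 1 FPKM in 3 or more of 6 libraries. Benjamini-Hochberg adjustment ran over all loci kept, with a threshold of 0.05. The test was also run on simulated data with known changes. FPKM are not counts, so no count model was used. Alternatives were a pseudocount of 0.1, no filter, a floor of 5 FPKM on the mean, no trend, quantile normalization, median-ratio scaling, all 9 libraries in 1 fit, a replicate block and leaving out each library. Python 3.11.15 with numpy 2.4.6, pandas 2.3.3, scipy 1.17.1 and matplotlib 3.10.9 did the rest.

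The members and all gene lists were chosen with earlier results of these data known. The text names the 9 members, up to 5 genes per list and direction with the largest called change among those without overlap and with at least 5 FPKM in a group, a fixed set of further pathway genes, and leading or absent markers. Other genes named beside a count (Atm, Atr and Prkdc, for example) complete that count and were named after their values were seen. For 2 genes of the apoptosome list, which enter its counts and median, values are not reported here.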

Additional observations from a re-analysis of the deposited data

How the results depend on the processing

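The limits are few libraries, shallow SSC libraries and SSC libraries that hold RNA of other testis cells. A gene listed at 0 in an SSC library may lie anywhere below the limit that a value of 0 allows there. The number of loci called between SSCiPSC and SSC, 18396, was 9707 with a mean of at least 5 FPKM, where 16833 loci were tested, and 11357 to 13901 when a library was left out, where fewer loci were tested and 1 group had 2 libraries. With no filter as well, an alternative chosen after seeing the data, it was 15005 to 21215. Between fiPSC and SSC, 19680 became 10158 with a mean of at least 5 FPKM, 11300 to 16585 without a library and 16354 to 23878 without a library and a filter. Of the loci called between SSCiPSC and SSC, 52.1% were higher in SSCiPSC, and 58.9% under median-ratio scaling, 49.1% under quantile normalization, 66.3% with a mean of at least 5 FPKM, 41.9% to 42.7% without an SSCiPSC library and 66.1% to 68.7% without an SSC library, or 49.6% to 58.1% where the filter was dropped as well. Between fiPSC and SSC, 54.2% became 59.9%, 49.4%, 64.2%, 42.1% to 43.0%, 65.2% to 67.7% and 52.9% to 60.2%. Between fiPSC and SSCiPSC, 23 became 11 with a mean of at least 5 FPKM, 11 with all 9 libraries in the fit, 6 with the replicate block, 2 to 10 without a library and 5, 11 or 8 without a filter and fiPSC replicate 1, 2 or 3 and 14, 7 or 8 without a filter and SSCiPSC replicate 1, 2 or 3. The cause was not tested. Libraries with the same replicate number did not deviate alike from their group means, with correlations from -0.236 to 0.0214. Low correlations between so few libraries cannot exclude pairs. The replicate block ended no call of a member.

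The number of members called against SSC was 5 or 6 under each alternative, and no member was called between fiPSC and SSCiPSC under any. Members that changed sign were not called under the settings where they did so. Between SSCiPSC and SSC these were Mdm2 (0.074) and Bcl2l1 (0.031) under median-ratio scaling. Between fiPSC and SSC it was Mdm2 (-0.38) under quantile normalization. Between fiPSC and SSCiPSC they were Trp53 (0.084), Bcl2l1 (0.062) and Mcl1 (-0.0026) without SSCiPSC replicate 2, and Bax (-0.028) without SSCiPSC replicate 1, each with and without the filter. Without 1 library the ranges were -0.478 to 0.084 for Trp53, -0.247 to 0.062 for Bcl2l1, -0.0026 to 0.180 for Mcl1 and -0.028 to 0.231 for Bax. Of the pathway genes, 30 to 36 were called in SSCiPSC against SSC without a library, against 39, and 34 to 40 in fiPSC against SSC, against 42. The filter left Bcl2 untested without an SSC library or with a mean of at least 5 FPKM. It was called in the 10 other alternatives of each comparison. The ratio of Bax and Bak1 to Bcl2, Bcl2l1 and Mcl1 cannot move with a scaling between libraries.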
